A study of Mus musculus with 3 samples.

Results

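The 10 genes described here make melanin or build and move the melanosome, the organelle that holds it. They were *Tyr*, *Tyrp1*, *Dct*, *Si*, *Mlana*, *Mitf*, *Gpr143*, *Rab27a*, *Rab38* and *Mlph*. A probe belonged to the set when the gene name in the scanner tables equalled one of these symbols, whatever its value. All 10 genes were found, through 13 of the 41174 probes on the array. *Si* is the array's older symbol for the gene that RefSeq names *Pmel*.

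RNA came from the choroid plexus epithelium (CPE) of 3 healthy C57BL/6 mice, laser dissected from cryosections of whole brain. No treatment and no genetic change is given for these mice. The study lists them as female and gives no sex for the reference animals. Each CPE sample was labelled with Cy5 and hybridised on its own array against 1 common reference RNA of RPE/choroid (retinal pigment epithelium and choroid of the eye) from the same strain, labelled with Cy3. The dyes were not swapped, so a probe's bias toward a dye stays in every ratio, and the error covers the 3 mice but not the spread among reference animals.

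Melanin is made inside melanosomes, which are related to lysosomes. Tyrosinase starts the synthesis by oxidising tyrosine, and the other enzymes act on later intermediates. The RPE, which derives from neuroepithelium, and the melanocytes of the choroid, which derive from neural crest, are both pigmented in black mice, whereas the CPE is known for secreting cerebrospinal fluid and not for pigment.

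Compared with RPE/choroid, 9 of the 10 genes had lower RNA levels in the CPE. By probe, 10 of 13 passed the test in that direction and 0 passed in the other, where passing needs an adjusted p under 0.05 (limma, Benjamini-Hochberg over all 25838 tested probes) together with a fold of 2 or more. The background was 10.2% of tested probes lower in the CPE and 7.09% higher, or 17.3% in either direction. When both channels had to be well above background, 8 probes of 7 of the genes passed as lower, against 11.3% of all probes then tested. The median log2 ratio of CPE over reference was −2.87 over the 13 probes and −0.04 over all tested probes. The exception was *Mitf*, the transcription factor that activates pigment genes, for which neither probe passed. In bulk RNA, fewer cells of a type and less RNA per cell cannot be told apart.

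The promoters of the 3 melanin enzymes are shown because these genes, all lower in the CPE, are textbook targets of the Mitf protein. The letters TCATGTG, the form of the Mitf-binding M-box searched here on both strands, are in capitals (CACATGA where the match lies on the other strand). Each window runs 5′ to 3′ from 250 bases before the gene's start to 50 after it (RefSeq, GRCm38.p6, at chr7:87493463-87493762 on the minus strand for *Tyr*, chr4:80833963-80834262 on the plus strand for *Tyrp1* and chr14:118052197-118052496 on the minus strand for *Dct*).
Tyr: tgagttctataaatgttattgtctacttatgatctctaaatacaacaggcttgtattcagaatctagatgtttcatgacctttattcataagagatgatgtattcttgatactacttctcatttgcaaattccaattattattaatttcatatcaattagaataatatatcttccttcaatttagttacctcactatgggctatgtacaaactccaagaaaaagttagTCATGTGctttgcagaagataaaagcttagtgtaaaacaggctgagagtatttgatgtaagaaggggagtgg
Tyrp1: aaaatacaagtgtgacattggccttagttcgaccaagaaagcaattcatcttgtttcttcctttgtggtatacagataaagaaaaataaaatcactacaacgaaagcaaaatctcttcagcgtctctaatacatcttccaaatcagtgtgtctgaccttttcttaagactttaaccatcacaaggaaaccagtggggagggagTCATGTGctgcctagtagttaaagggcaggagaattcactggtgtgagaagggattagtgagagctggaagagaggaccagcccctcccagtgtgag
Dct: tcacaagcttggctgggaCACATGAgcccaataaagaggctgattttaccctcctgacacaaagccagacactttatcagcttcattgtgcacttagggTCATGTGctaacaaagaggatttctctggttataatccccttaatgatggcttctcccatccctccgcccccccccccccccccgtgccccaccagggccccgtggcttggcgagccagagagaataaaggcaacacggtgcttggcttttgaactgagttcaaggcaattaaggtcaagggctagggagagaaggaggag
The match started at −22 in *Tyr*, at −47 in *Tyrp1*, and at −151 and, on the other strand, −232 in *Dct*. Of all 32851 mouse windows of this length, 3.77% held these letters. CACGTG, the E-box form that bHLH factors of several families bind, was found in *Mlph* and in 1 *Rab27a* window, and in 7.15% of all windows. No window of the 10 genes held both motifs, and the *Mitf* windows held neither. In all, 6 of the 10 genes had a window in the table used. A match of letters describes the window and does not show that a factor binds there.

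The 3 enzymes of melanin synthesis all had higher levels in the reference. *Tyrp1*, which acts late in the synthesis of black eumelanin, was measured by 1 probe on chromosome 4 (80322452 to 80322511, mm8). Its CPE intensity was 204, 155 and 358 in mouse 1, 2 and 3, and its reference intensity on the same arrays was 36718, 21726 and 22580. Every CPE value was below every reference value, at 0.555%, 0.713% and 1.59% of it before normalization. After normalization the log2 ratio was −8.71, −7.80 and −8.01, with a mean of −8.17 ± 0.20 (SE, n = 3), or 289-fold (adjusted p = 4.01e-06, limma). This was the lowest log2 ratio of all 25838 tested probes. In mouse 3 the CPE intensity lay within the range of that channel's negative control spots (233 to 463, median 357), although the scanner software had called it well above background.

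*Dct*, dopachrome tautomerase, the enzyme that rearranges dopachrome, had 2 probes on the minus strand of chromosome 14 that lie 26792 bases apart on mm8. The upstream probe (116921961 to 116922020) had a CPE intensity of 2762, 1630 and 2768 and a reference intensity of 42901, 41113 and 41110. The groups did not overlap. Its log2 ratio was −5.27, −5.51 and −4.88, with a mean of −5.22 ± 0.18 (SE, n = 3), or 37.3-fold lower in the CPE (adjusted p = 5.40e-06, limma). The downstream probe (116895169 to 116895229) had a CPE intensity of 2563, 1866 and 2737 and reached saturation in the Cy3 channel of every array, 1 of only 2 probes on the array for which this held. On the loess-normalized scale the reference was therefore at least 58.4-fold higher at that probe, a log2 ratio of −5.87 ± 0.17 (SE, n = 3, adjusted p = 4.04e-06, limma), and with median centring in place of loess the log2 ratio was −4.99. The saturation leaves no measured difference between the 2 probes.

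*Tyr*, tyrosinase, the rate-limiting enzyme, was measured by 1 probe on chromosome 7 (87303516 to 87303575, mm8). The CPE intensity was 84.5, 75.3 and 310.4, inside the negative control range of its array in each mouse and not well above background on any array. The reference intensity was 470, 393 and 461, well above background on all 3 arrays. The CPE value is thus only a limit, and after loess and scaling between arrays the reference was at least 4.80-fold higher. The fitted log2 ratio was −2.70, −2.01 and −2.38, with a mean of −2.36 ± 0.18 (SE, n = 3, adjusted p = 8.23e-05, limma). The mean was −1.82 without background correction and −4.85 with the scanner software's own log ratio.

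**Figure D1:**
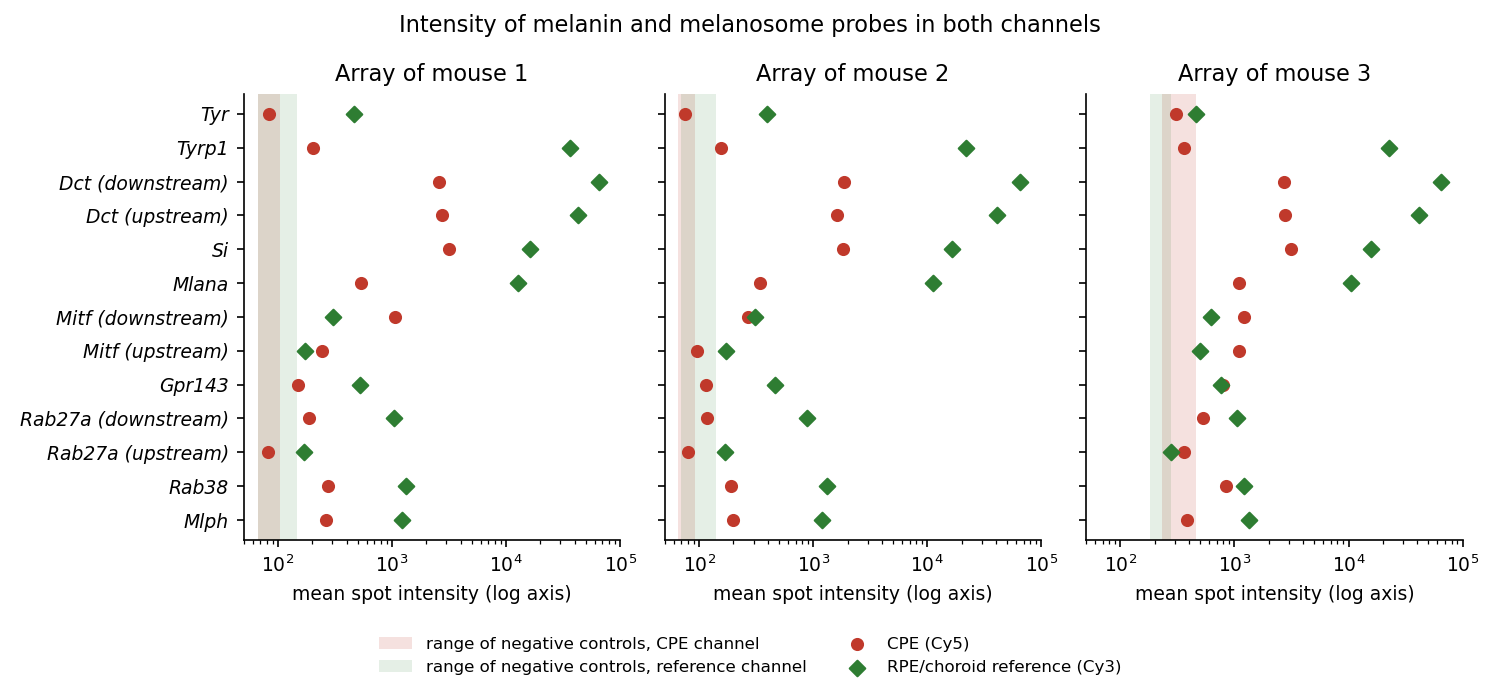
Intensity (log axis, arbitrary units, before background correction) of the 13 probes in the CPE (Cy5) and the RPE/choroid reference (Cy3) on each of the 3 arrays, with the range of the negative control spots of each channel shaded. The *Tyrp1* and *Dct* points of the reference lie far above those of the CPE on all 3 arrays. The *Tyr* points of the CPE lie inside the range of the CPE channel, which is higher on the third array (233 to 463).

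The RNA of *Si* and *Mlana*, which encode proteins of the melanosome's fibrils and membrane, was also lower in the CPE. *Si*, which encodes the protein that forms the fibrils on which melanin is laid down, had 1 probe on chromosome 10, spanning 128121922 to 128122879 on mm8. Its CPE intensity was 3132, 1829 and 3130, against 16309, 16355 and 15675 in the reference, with no overlap between the groups. The log2 ratio was −3.64, −3.93 and −3.31, with a mean of −3.63 ± 0.17 (SE, n = 3), or 12.3-fold (adjusted p = 1.26e-05, limma). *Mlana*, known as MART-1, a melanosomal membrane protein that takes part in the maturation of the *Si* product, lies on chromosome 19 (29774346 to 29774405). Its CPE intensity was 535, 339 and 1091, and its reference intensity was 12816, 11180 and 10499. The groups did not overlap, and mouse 3 was the highest of the CPE samples. The log2 ratio was −5.72, −5.62 and −4.45, with a mean of −5.26 ± 0.26 (SE, n = 3), or 38.4-fold (adjusted p = 1.32e-05, limma).

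*Mitf* stood apart from the genes it is known to activate. Its downstream probe (chromosome 6, 97983855 to 97983914, mm8) had a CPE intensity of 1060, 270 and 1205 and a reference intensity of 304, 309 and 628. The groups overlapped in these values, since mouse 2 lay below all 3 reference values. The log2 ratio was 1.24, 0.08 and −0.01, with a mean of 0.44 ± 0.25 (SE, n = 3) and a 95% confidence interval of −0.15 to 1.03 (adjusted p = 0.212, limma). Mouse 1 carried most of this difference.

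The upstream *Mitf* probe, 10100 bases away (97971656 to 97975912), had a CPE intensity of 243, 96.4 and 1091 and a reference intensity of 172, 172 and 494. It was well above background in 2 of the 3 CPE samples. Its log2 ratio was 0.63, −0.07 and 0.25, with a mean of 0.27 ± 0.18 (SE, n = 3) and a 95% confidence interval of −0.15 to 0.69 (adjusted p = 0.278, limma). The 2 probes differed by −0.17 ± 0.43 (SD, upstream minus downstream), a difference smaller than its spread. Both intervals include 0, and neither includes a level 2-fold lower in the CPE.

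*Gpr143*, the receptor of the melanosome membrane whose loss causes ocular albinism, was measured on chromosome X (148125829 to 148126861, mm8). Its CPE intensity was 150, 115 and 788 and its reference intensity was 524, 459 and 768. It was well above background on 2 of the 3 arrays in the CPE. It entered the test through the reference channel, where all 3 were. The raw groups overlapped, and the third array was brighter in the CPE channel throughout, with a median intensity of 684 over all probes against 139 and 104 on the others. Within each array after normalization the log2 ratio was −2.21, −1.70 and −1.16, below 0 in all 3 mice. The mean was −1.69 ± 0.21 (SE, n = 3), or 3.22-fold lower (adjusted p = 0.000855, limma). Tested against a change of 2-fold instead of 0 (limma treat), the adjusted p was 0.103.

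*Rab38*, *Mlph* and 1 of the 2 *Rab27a* probes, of genes that load or move melanosomes, were lower in the CPE as well. *Rab38*, a small GTPase that brings melanin enzymes to the forming melanosome, was measured on chromosome 7 (88366041 to 88366100, mm8). Its CPE intensity was 278, 189 and 850, and its reference intensity was 1324, 1319 and 1221. The groups did not overlap. The log2 ratio was −3.03, −2.96 and −1.75, with a mean of −2.58 ± 0.26 (SE, n = 3), or 5.98-fold lower (adjusted p = 0.000296, limma).

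*Mlph*, melanophilin, which links Rab27a to myosin Va, lies on chromosome 1 (92781153 to 92781212). Its CPE intensity was 263, 198 and 386, and its reference intensity was 1234, 1195 and 1333. The groups did not overlap, although the value of mouse 3 lay within the negative control range of its array. Its log2 ratio was −2.99, −2.73 and −3.76, with a mean of −3.16 ± 0.22 (SE, n = 3), or 8.94-fold lower (adjusted p = 5.10e-05, limma).

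*Rab27a*, the GTPase that tethers mature melanosomes to their motor, had 2 probes on chromosome 9 that lie 963 bases apart, of which 1 passed the test. The downstream probe (72893993 to 72894052, mm8) had a CPE intensity of 187, 118 and 534 and a reference intensity of 1050, 880 and 1047. The groups did not overlap. The 3 mice gave a log2 ratio of −3.19, −2.89 and −2.53, and a mean of −2.87 ± 0.18 (SE, n = 3), or 7.31-fold lower (adjusted p = 3.33e-05, limma).

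The upstream *Rab27a* probe (72893030 to 72893089) had a CPE intensity of 81.6, 79.8 and 360, inside the negative control range in each mouse. In the reference it was 168, 169 and 277, close above the highest negative control spot of that channel on each array (146, 140 and 276). Its CPE value is a limit only, so no fold is given. The fitted log2 ratio was −0.54 ± 0.15 (SE, n = 3, adjusted p = 0.0229, limma), short of 2-fold, and −0.37 without background correction.

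**Figure D2:**
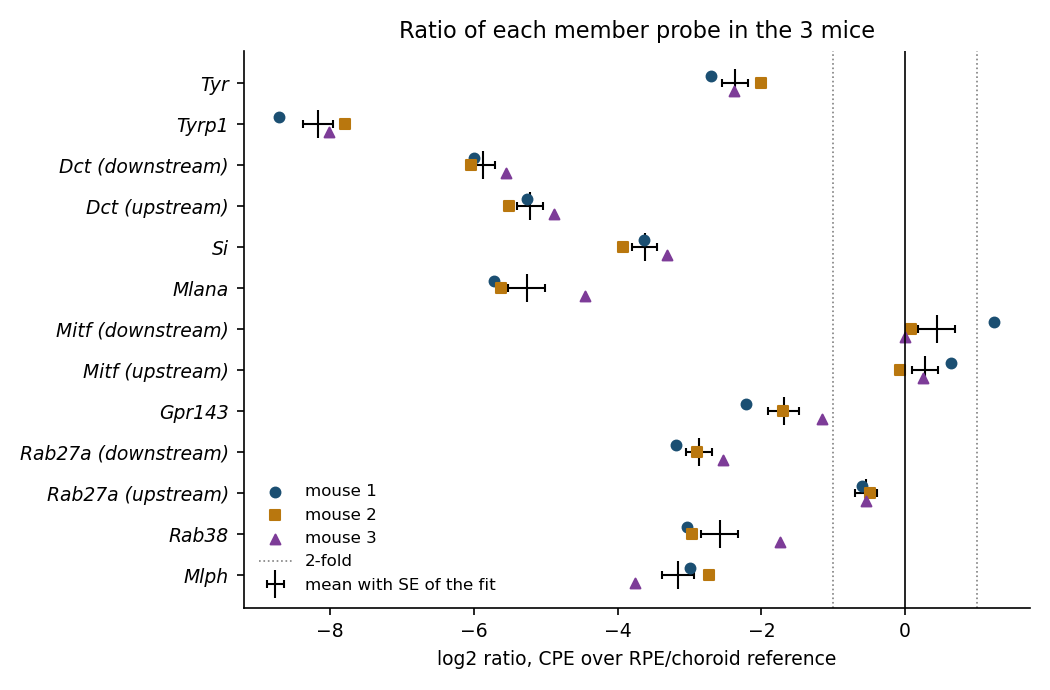
Log2 ratio of CPE over RPE/choroid reference for the 13 probes, with a point for each mouse, the mean and its standard error, and dotted lines at a 2-fold change. All 3 points lie below 0 for 11 of the 13 probes, and both *Mitf* probes lie around 0.

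Across the set, 11 of 13 probes were below 0 in all 3 mice, against 36.6% of all tested probes. The median over the 13 probes was −3.03, −2.89 and −2.53 in mouse 1, 2 and 3. At a log2 ratio of −5 or lower stood 4 of the 13 probes and 24 of all 25838 (0.0929%). The 4 were *Tyrp1*, both *Dct* probes and *Mlana*. The count of probes past the test was also 10 when any 1 mouse was left out, where 9.26% to 10.2% of all tested probes were lower. The sizes moved with the normalization. With median centring the log2 ratio was −7.49 for *Tyrp1*, −4.37 for the upstream *Dct* probe, −2.82 for *Si* and −4.58 for *Mlana*. With the scanner software's ratio it was −9.12 for *Tyrp1*, −4.06 for *Mlph*, −3.52 for the downstream *Rab27a* probe and −2.47 for *Gpr143*.

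A ratio does not give the level within the CPE, so each probe was also ranked by its mean log2 intensity among all 41174 probes of its channel, after scaling between arrays. The study's methods call a percentile above 90 high, 50 to 90 moderate, 10 to 50 low and below 10 very low. A rank reads the brightness of a probe, so it sets no order between genes. In the CPE, 3 of the 13 probes were in the high class, which holds 10% of all probes by construction, 8 were moderate, 0 low and 2 very low. Some of these ranks lay near a class limit. Ranked from the log2 levels deposited by the authors, *Tyrp1* (37.9), *Mlph* (47.6) and the *Rab27a* probes (46.7 and 11.0) were low. In the reference, 7 were high, 5 moderate and 1 low.

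The 3 probes in the high class of the CPE were *Si* and both *Dct* probes, in each of the 3 mice. *Si* stood at percentile 92.5, 91.7 and 94.5 in mouse 1, 2 and 3, and at 93.1 by its mean. The downstream *Dct* probe stood at 91.1, 91.7 and 93.9, with 92.5 by its mean. Both genes were thus read well above background in the CPE, on all 3 arrays, while both passed the test as lower than in the reference. Ranked only among probes well above background in the CPE, *Si* was at 84.7 and the *Dct* probes at 83.3 and 82.6, so that 0 were in the high class.

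*Tyrp1* was at percentile 51.5 in the CPE and 99.8 in the reference. Of the 412 probes above percentile 99 in the reference, 388 (94.2%) were above 90 in the CPE, with a median CPE percentile of 99.3. The CPE rank of *Tyrp1* was sensitive to the processing, at 29.1 with loess before the scaling and 60.3 without mouse 3. The *Mitf* probes were moderate in both tissues, at 79.0 and 63.8 in the CPE and 72.8 and 60.4 in the reference. *Tyr* was very low in the CPE at 3.29 and moderate in the reference at 74.3.

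**Figure D3:**
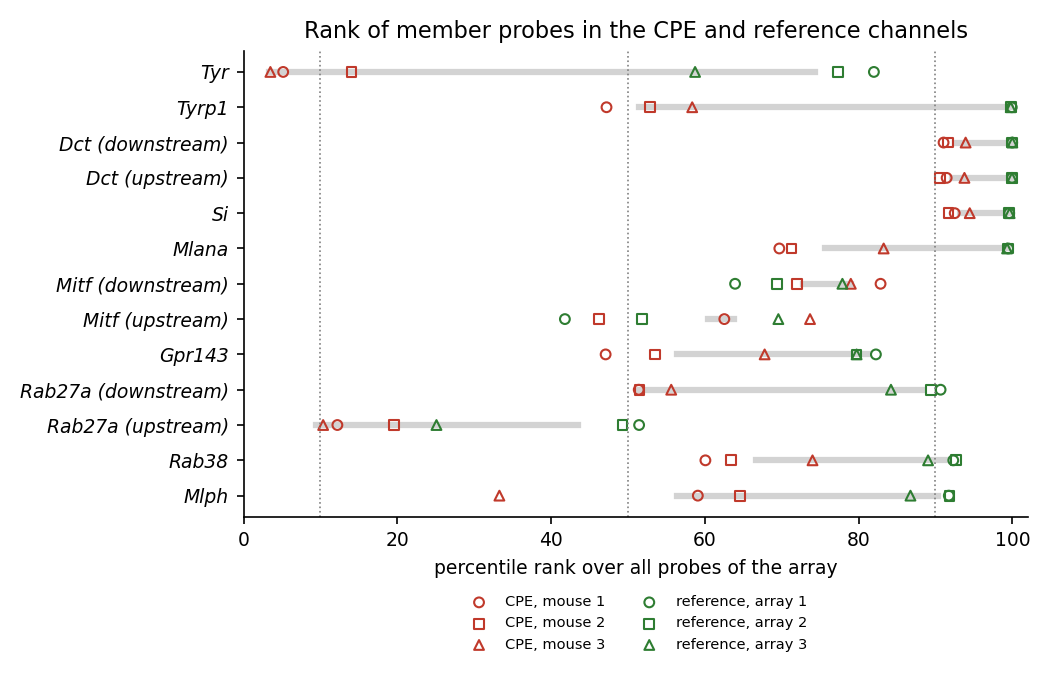
Percentile of each of the 13 probes among all probes of the CPE channel and of the reference channel, with a point for each mouse, grey bars joining the ranks of the mean levels, and dotted lines at the class limits of 10, 50 and 90. *Si* and both *Dct* probes lie above 90 in both channels, *Tyrp1* falls from 99.8 to 51.5, and *Mitf* lies between 50 and 90 in both.

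By detection, 9 of the 13 probes were well above background in the CPE on all 3 arrays, 2 on some and 2 on none, while all 13 were in the reference on all 3 arrays. The shares over the whole array were 44.9% on all and 12.1% on none in the CPE, and 61.5% on all in the reference.

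Further genes of the pigment pathway did not move as a block. Of 53 such genes on the array, with the brightest probe taken for each, 49 were tested, 12 were lower, 5 higher and 32 did not pass. With median centring in place of loess the balance turned, to 9 lower and 11 higher. In the loess fit over all 18280 genes taken in this way, 11% were lower and 7.93% higher. The median log2 ratio was −0.20 for the 49 genes and −0.04 for all genes. Some genes are named below only to spell out such counts, after their values were seen.

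Among genes for ion transport and melanosome contents, 5 of 8 tested were lower and 1 higher, with a median log2 ratio of −2.34. *Trpm1*, a cation channel of melanocytes and retinal bipolar cells, had a log2 ratio of −6.17 ± 0.16 and *Tspan10*, a tetraspanin, −4.75 ± 0.20 (SE, n = 3 each). *Trpm1* was well above background in the CPE on only 1 of the 3 arrays. Its ratio was −5.63 without background correction and −8.36 with the scanner software's log ratio. *Gpnmb*, a relative of the *Si* product, was at −4.67 at its brightest probe and −0.22 at its other. *Slc45a2* and *Slc24a5*, transporters whose variants lighten pigment, were at −2.70 and −1.99. *Atp7a*, which supplies tyrosinase with copper, was higher by 1.02 ± 0.25 (adjusted p = 0.0154, limma), with 1.70, 0.34 and 1.02 in the 3 mice, its value without mouse 1 was 0.68, and its other probe was at −0.16. *Cd63*, a tetraspanin of many endosomal organelles, was at −0.05 ± 0.18 and did not pass.

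The 18 genes of melanosome biogenesis, which other lysosome-related organelles use too, had a median of −0.10. Of these, 4 were lower and 0 higher. *Rab32*, which acts beside *Rab38*, was at −1.65 ± 0.17, *Hps4*, a subunit of the exchange factor BLOC-3 that activates both, at −1.16 ± 0.15, *Dtnbp1* at −1.15 ± 0.17 and *Hps3* at −1.04 ± 0.18 (SE, n = 3 each). With median centring in place of loess, *Hps4*, *Dtnbp1* and *Hps3* no longer passed. Other probes were at −0.28 for *Hps3* and at −0.68 and −0.47 for *Dtnbp1*. The highest values were 0.86 ± 0.18 for *Hps6* and 0.63 ± 0.15 for *Ap3b1*, both under 2-fold.

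Of the 8 genes for melanosome movement, 0 were lower and 1 was higher. *Myo7a*, the myosin that carries melanosomes in the RPE, was higher by 1.33 ± 0.15 (SE, n = 3, adjusted p = 0.000563, limma), at 1.51, 1.28 and 1.21 in the 3 mice. *Myrip*, which links it to Rab27a, was at 0.51 ± 0.15, while *Myo5a*, the melanocyte motor, was at −0.87 ± 0.16 and *Mreg*, melanoregulin, at −0.54 ± 0.19. These last 3 did not reach 2-fold.

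Transcription factors moved both ways, with 2 of 9 lower and 3 higher. *Pax6*, the eye-field factor, was at −5.17 ± 0.16 and *Sox10*, a melanocyte and glial factor that activates *Mitf*, at −1.48 ± 0.15. *Lef1*, an effector of Wnt signalling, was higher by 2.38 ± 0.23, *Sox9* by 1.54 ± 0.15 and *Usf1* by 1.09 ± 0.18 (SE, n = 3 each). Probes of one gene differed here, since other probes were at −2.71 and −0.58 for *Pax6*, 0.61 for *Lef1* and 1.05 for *Sox9*. Of 6 ligands and receptors tested, only *Kitl*, the ligand of the receptor Kit, passed by its brightest probe, at −1.53 ± 0.16. *Ednrb*, the endothelin receptor of melanocyte precursors, was at −0.68 ± 0.15 with another probe at −1.55. *Pomc*, the precursor of melanocortins, was at 0.43 ± 0.15 and *Edn3*, a ligand of *Ednrb*, at −0.21 ± 0.16. None of these 3 passed by the brightest probe. With the probe of lowest p taken for each gene, 13 wider genes were lower instead of 12, the added 1 being *Ednrb*. *Mc1r*, *Asip*, *Tfeb* and *Slc24a4* were not tested, as no probe of theirs was well above background on all 3 arrays in either channel.

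**Figure D4:**
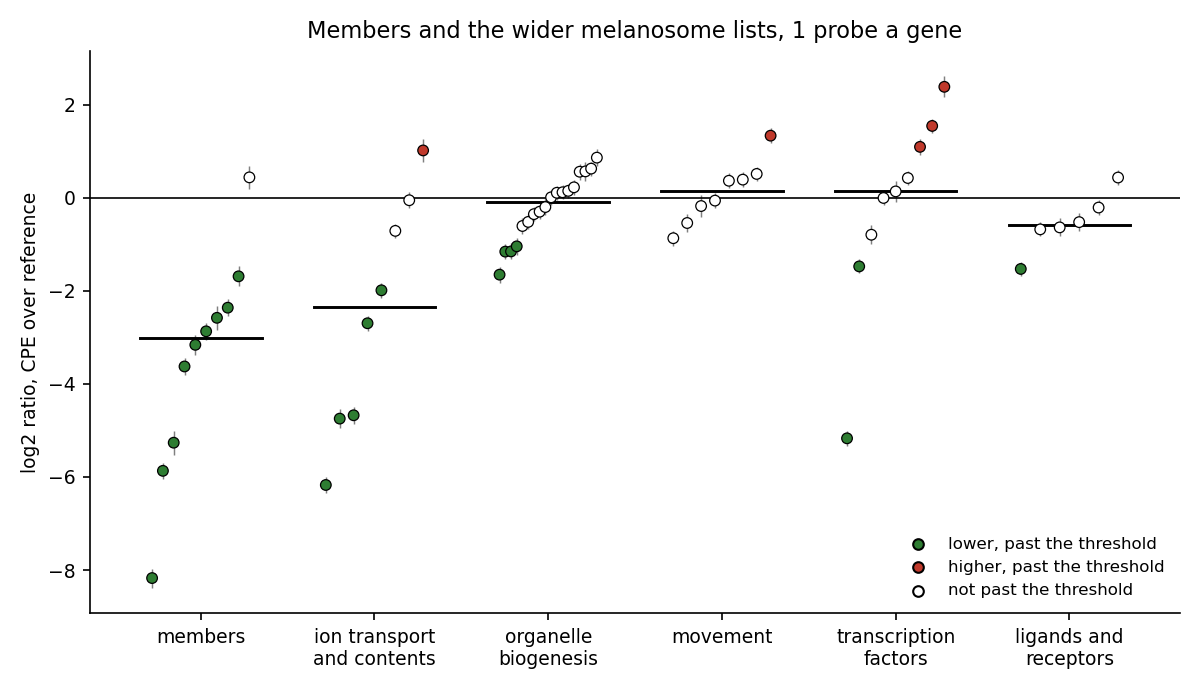
Log2 ratio of CPE over reference (mean and standard error of 3 mice, 1 probe a gene) for the 10 genes and for the tested genes of 5 wider lists of the pigment pathway, with a black bar at each list's median and a solid line at no change. The 10 genes and the ion transport and contents list (median −2.34) lie lower than the biogenesis (−0.10) and movement (0.15) lists.

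Over the 18280 genes tested, the patterns nearest to the median of the 10 genes (−3.11, −2.93 and −2.92 in the 3 mice), by root mean square distance over the 3 ratios, included *Lrp2* (0.068), *Eif2s3y* (0.089) and *Nbl1* (0.099), and a transcript without a gene symbol. Nearness in these ratios does not show a shared role with pigment, and the part of sex in them was not tested.

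The label of each RNA was compared with markers of cell types. All 9 CPE markers measured, such as *Ttr* and *Kl*, were higher in the CPE, at percentiles of 97.5 to 99.99 there, and their summed intensity was 290150 to 360027 in the CPE and 18910 to 20346 in the reference. In the CPE channel *Ttr* and *Enpp2* were saturated on all 3 arrays and *Clic6* on 1, so the CPE sums are lower limits. Of 8 RPE markers, 5 were lower in the CPE, including *Rpe65* at −6.71 ± 0.18 (SE, n = 3), and *Trpm3* was higher by its brightest probe, with sums of 63136 to 79541 in the CPE and 109017 to 137863 in the reference. The other *Trpm3* probes ran from −0.72 to 2.13. The melanocyte markers did not move as a group. *Sox10* (−1.48) and *Erbb3* (−1.02) were lower in the CPE, but the other tested *Erbb3* probe was at 0.01. With median centring *Sox10* was at −0.97 and did not pass. *Kit* (−0.64) and the brightest *Ednrb* probe (−0.68) did not pass, but the other *Ednrb* probe did, at −1.55. *Pax3* did not stand well above background in the CPE of any mouse, and *Mc1r* was not tested.

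The reference also held RNA of cells without pigment. All 8 photoreceptor markers were lower in the CPE, by log2 ratios of −3.36 to −6.37, with sums of 6010 to 10328 in the CPE and 120967 to 135342 in the reference. Each was well above background in all 3 CPE samples. Of 6 markers of stroma, 5 were lower, and of 6 endothelial markers 0 were lower and 1 was higher. Among the stroma markers, the other tested probe was at 1.12 for *Col1a1* and −0.70 for *Dcn*. The part of these cell types in the values of the pigment genes was not tested.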

How the data were processed

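The authors read the arrays with Agilent Feature Extraction (version 9.5.3.1, mm8 annotation) and deposited its tables. Per the file headers they hold, for each spot, the intensity in both channels, the background intensity and flags, and the log10 ratio of processed red over green intensity. A deposited table of the series holds log2 levels of the CPE channel, made by the authors with limma in R 2.14.0. Spearman's rho with that channel was 0.998 to 0.999 across probes, which are not independent replicates, and medians were 6.90 to 6.99.

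Here, intensities were corrected with normexp (offset 50) and loess within arrays (limma 3.58.1, R 4.3.3), control spots having weight 0 and outlier spots left out. A probe was tested if, in at least 1 channel, every array read it well above background, by limma with an intercept, eBayes and Benjamini-Hochberg adjustment. For a probe dim or saturated on all arrays, the fold is a bound after loess and Aquantile, open to dye bias. Percentiles used mean intensity without background correction, after Aquantile. The fit was tested on simulated data. Within each array, 18932 to 35233 probes were well above background in the CPE and 28256 to 34651 in the reference. The number of arrays limits the precision.

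All 10 genes were named whatever their values. From each wider list the 2 lowest and 2 highest genes and any higher gene past the test were named, and the 5 nearest patterns. The value of 1 melanocyte marker, with that list's sum and full count, and 1 of the nearest patterns are not reported here. Members and lists were chosen with earlier results of these data known. Of the 13 probes, 11 matched RefSeq by accession, as did 56.8% of all probes. Exons are not given, as no annotation of mm8 was used. Human arrays were not analysed here. Alternatives covered background correction, normalization, the filter, array weights, limma treat, the choice of probe and leaving out each mouse.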

Additional observations from a re-analysis of the deposited data

How the results depend on the processing

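The count of 10 pigment gene probes lower in the CPE was the same in every alternative but 3. It was 9 with limma treat, which lost *Gpr143*, 11 with the scanner software's log ratio, where the upstream *Rab27a* probe passed at −2.05 (adjusted p = 0.0160, limma), and 8 when both channels had to be well above background, which left 9 probes to test. Of all tested probes, 3.71%, 15.1% and 11.3% were lower in these 3 settings, against 10.2% in the main fit. In the alternatives that kept the count at 10 the share was 6.34% to 10.7%. The members' median log2 ratio was −2.55 without background correction, −3.68 with the scanner's ratio, −2.52 with median centring and −3.63 with the filter on both channels. Leaving out 1 mouse gave −2.997 to −2.71. The number of probes in the high class was 0 when ranked over probes well above background in the CPE.

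Over all probes, 4462 passed, against 6761 with the scanner's ratio and 1414 with treat (959 lower and 455 higher). Higher probes numbered 2849 with the scanner's ratio and 3743 with median centring (1842 lower), which moved the share of calls that were higher from 41.1% to 67.0% and the median log2 ratio of all tested probes from −0.04 to 0.09. Without 1 mouse, 4024 to 5360 passed. Of the wider pathway genes, 7 passed with treat (6 lower and 1 higher), and the 5 higher genes were 3 without background correction, 11 with median centring (against 9 lower) and 3 to 6 without 1 mouse. Without mouse 1, *Atp7a* (0.68), *Usf1* (0.97) and *Dtnbp1* (−0.996) lost their calls, as did *Hps3* without mouse 3 (−0.86). With median centring *Hps3* (−0.63), *Hps4* (−0.65), *Dtnbp1* (−0.45) and *Sox10* (−0.97) did. The causes were not tested. Median centring thus turned the balance of calls, over all probes and the wider genes, from mostly lower to mostly higher. No pigment or wider gene that passed changed its sign in the alternatives run, which include the scanner background with its fitted surface, chosen after seeing the data because the third array's CPE background was higher (median 363 against 81.2 and 82.6), and which left the count at 10.

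Signal over background limits *Tyr* and the upstream *Rab27a* probe to bounds in the CPE, and saturation limits the downstream *Dct* probe in the reference. The CPE values of *Tyrp1* and *Mlph* in mouse 3 also lay within the negative control range of that array.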
